A study of Mus musculus with 35 samples.

Results

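Glutathione transferase genes were measured in 35 RNA-seq libraries of organoids, 3-dimensional epithelial cultures grown in vitro, from mouse colon tumours. The 10 genes were chosen by name, with no measured value in the rule, out of 54354 genes in the deposited table. They are Gsta1, Gsta2, Gsta3 and Gsta4 of the alpha class, Gstm1 and Gstm5 of the mu class, Gsto1 (omega), Gstp1 (pi), Gstt1 (theta) and the microsomal gene Mgst1. The groups were 15 libraries of organoids given carmofur, an inhibitor of ceramidases, against 12 controls of their own, and 3 libraries of palmitic acid (PA) batch 1 and 2 of PA batch 2 against 3 PA controls. The series asks how organoid transcription depends on fatty acids and ceramides. The genotype is labelled AKP in every library, controls included, and the labels give no dose, duration, vehicle, clone or passage and place the PA controls in neither batch. Every fold change below is carmofur over carmofur control or PA over PA control unless another pair is named.

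Total counts per library ranged from 3127275 to 10609563 with carmofur and from 1663750 to 8124707 in its controls. In the PA experiment they ranged from 2138905 to 2845017 in batch 1, from 2406582 to 3742289 in batch 2 and from 762888 to 2511723 in the controls. Levels are CPM (read counts scaled to a common library total), scaled by TMM within each experiment, so a level is compared only inside its own experiment. Nothing in the labels states whether libraries within a group were grown separately, and the p-values then reflect only their spread, possibly a technical one. The 9 epithelial markers checked summed to at least 3105 CPM in every library, and the 8 mesenchymal markers to at most 6.84 CPM, with Col1a1, Col1a2, Lum and Pdgfrb at 0 counts in all 35. In bulk RNA, fewer cells of a type and less RNA per cell cannot be told apart.

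Glutathione transferases join the tripeptide glutathione to reactive or fat-soluble compounds, which makes them easier to export. The soluble enzymes work as pairs of subunits and are grouped into classes by sequence, while the microsomal enzymes are membrane proteins of a separate family. Several of the genes are known in liver and gut as targets of the oxidant-sensing factor NRF2 and of the xenobiotic receptors. In the intestine, alpha-class enzymes are known mainly from the villus and surface epithelium, and GSTP1 is commonly abundant in human colon tumours.

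The alpha genes lie close together, and reads are hard to assign among them. In GENCODE M21 (GRCm38, the build called mm10), Gsta4 spans chromosome 9, 78182774 to 78209349, Gsta1 78230656 to 78242684, and Gsta2 78331018 to 78355788 on the opposite strand. Between Gsta1 and Gsta2 lie Gm3776 (78257129 to 78269166) and the gene the deposited table calls Gsta5, which GENCODE M21 names Gm10639 (78289923 to 78305525). The other genes lie on chromosome 1 (Gsta3, 21240589 to 21265661), chromosome 3 (Gstm5, 107895821 to 107898686, and Gstm1, 108012255 to 108017973), chromosome 6 (Mgst1, 138140316 to 138156755), chromosome 10 (Gstt1, 75783813 to 75798584) and chromosome 19 (Gstp1, 4035407 to 4037985, and Gsto1, 47854970 to 47864790). The coding sequence of Gsta1 was 99.7% identical to that of Gm3776, 97.6% to that of Gsta2 and 97.0% to that of Gsta5, against 73.4% for Gsta3 and 65.5% for Gsta4. The longest stretch without a difference between the annotated transcripts was 565 bases for Gsta1 and Gm3776 and 253 bases for Gsta1 and Gsta2. The same 120 coding bases (373 to 492 from the start codon) of the 4 near-identical genes are shown, with the positions that differ among them in capitals. They come from the GENCODE transcripts, and the window was picked where Gsta1 and Gsta2 differ most, so it understates how alike that pair is.
Gsta1: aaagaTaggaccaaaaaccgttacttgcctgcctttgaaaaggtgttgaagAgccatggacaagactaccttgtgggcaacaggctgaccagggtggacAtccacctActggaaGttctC
Gm3776: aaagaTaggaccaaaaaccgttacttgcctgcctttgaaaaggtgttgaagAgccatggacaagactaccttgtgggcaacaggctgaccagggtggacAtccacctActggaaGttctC
Gsta5: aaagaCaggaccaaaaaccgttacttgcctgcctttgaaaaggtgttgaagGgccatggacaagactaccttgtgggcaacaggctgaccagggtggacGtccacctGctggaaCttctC
Gsta2: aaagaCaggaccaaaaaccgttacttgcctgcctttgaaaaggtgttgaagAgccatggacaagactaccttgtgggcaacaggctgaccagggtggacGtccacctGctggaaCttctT
Gsta1 and Gm3776 had the same letters throughout this window, and Gsta5 and Gsta2 each differed from Gsta1 at 5 of the 120 positions. A read lying wholly in a stretch without a difference fits both genes, and the counting program then divides it by estimate. Of the counts given to these 4 genes, Gsta1 held 84.9% with carmofur and 88.8% in its controls, and Gm3776 held 13.7% with carmofur and 11.1% in its controls. Values of Gsta1 are therefore uncertain by what Gm3776 may have taken or given. In the PA experiment Gsta1 held 87.5% of the counts of the 4 genes in batch 1, 73.6% in batch 2 and 99.2% in the controls, on 64, 87 and 121 counts.

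Gstp1 had the highest level per length of the 10 genes in every group. Per kilobase of the longest annotated coding transcript, it averaged 679 ± 192 CPM with carmofur (SD, n = 15) and 782 ± 132 CPM in the carmofur controls (n = 12). It averaged 1055 ± 69.1 CPM per kilobase in PA batch 1, 1074 in PA batch 2 and 1148 ± 215 in the PA controls (n = 3, 2 and 3). Gstp1 stood above the next gene in order in all 35 libraries. Gstm5 and Gsta4 came next, at 125 ± 55.0 and 106 ± 37.7 CPM per kilobase with carmofur, and Gstm5 was the higher in 10 of those 15 libraries, so their order there did not hold across libraries. Gsta1 followed these 3 with carmofur, at 60.7 ± 34.2 CPM per kilobase, and had rank 7 in the carmofur controls, at 15.1 ± 15.1. With carmofur it lay above Gstm1, the next in order, in 12 of 15 libraries, and in the controls it lay above Mgst1, the next there, in 6 of 12. Gstm1, Gsto1 and Gsta3 lay between 22.3 and 39.9 CPM per kilobase in both carmofur groups and overlapped, while Mgst1, Gstt1 and Gsta2 were the lowest, in that order, in all 5 groups.

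**Figure D1:**
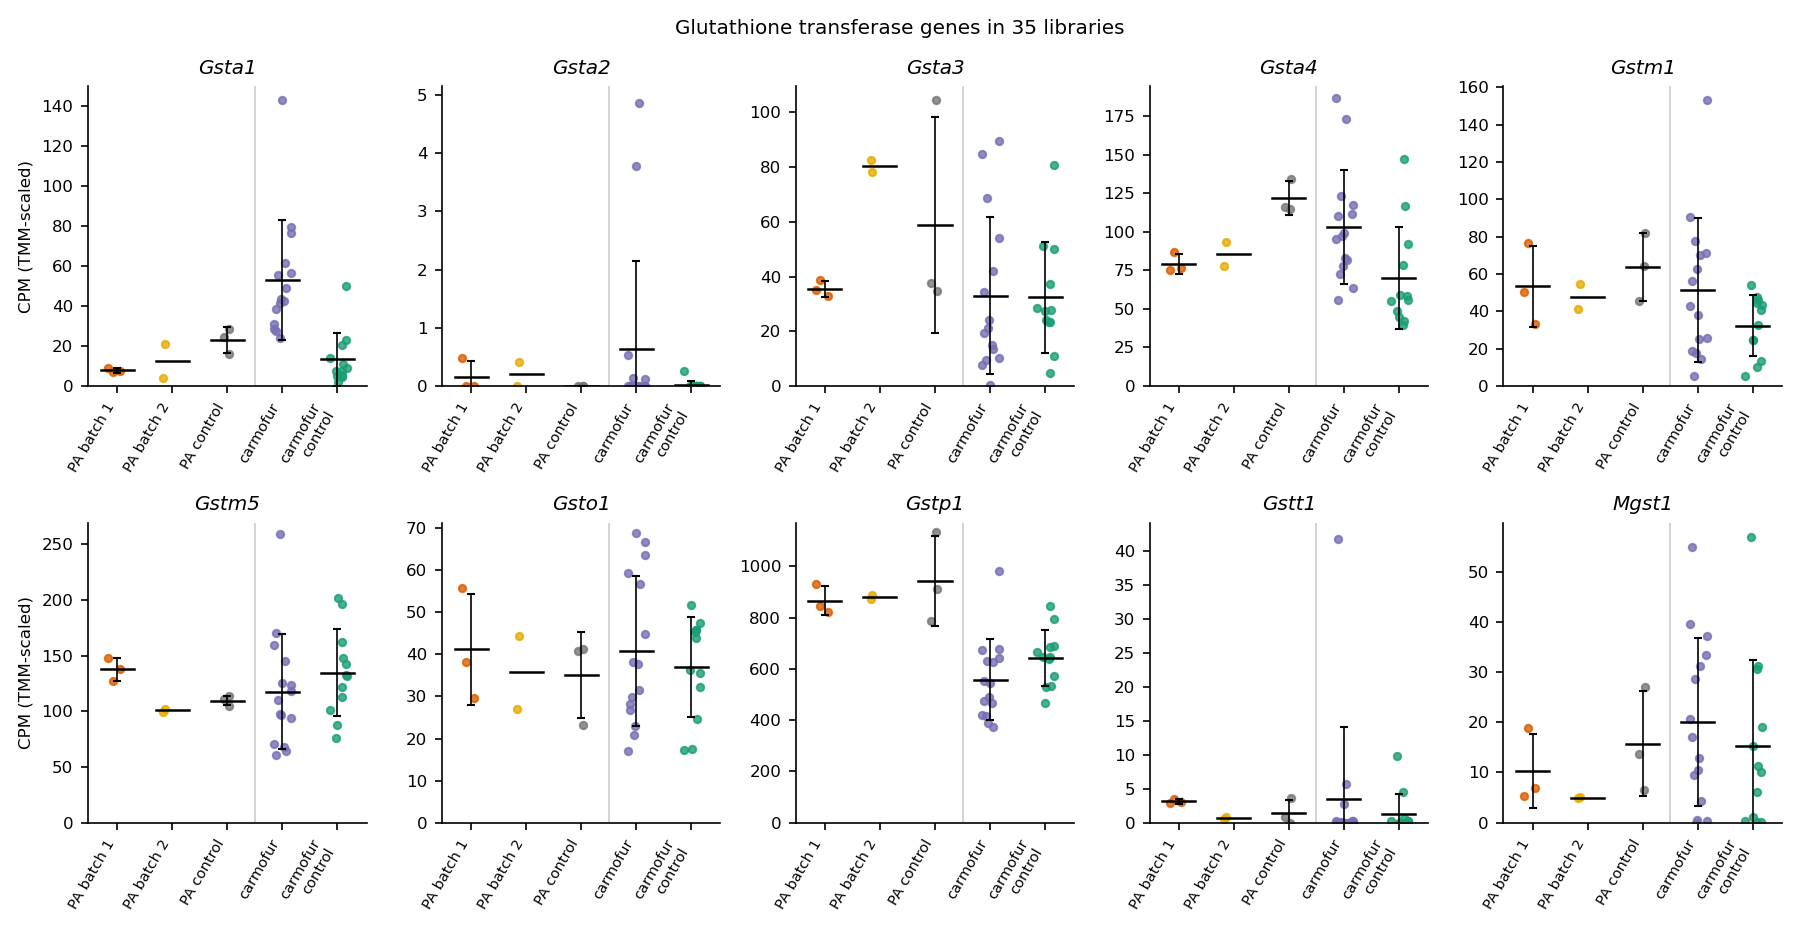
CPM of each of the 10 genes (y axes, linear, from 0) in each library (points) by group (x axis), with the group mean as a bar and the SD as a whisker where a group has at least 3 libraries. The grey line separates the PA and carmofur experiments, which were scaled apart. Gsta1 was at 23.8 to 143 CPM with carmofur and at 1.93 to 49.8 CPM in the controls, and Gstp1 was the highest throughout.

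Gsta1 rose 3.95-fold with carmofur, and none of the other 7 tested genes passed the threshold (edgeR). The other 7 held 1 unadjusted p under 0.05, where 1894 of all 9992 genes tested had one. Gsta1, an alpha-class subunit known for conjugating lipid peroxidation products and for binding bile pigments and steroids, had a lowest level of 23.8, a median of 43.6 and a highest of 143 CPM with carmofur, against 1.93, 8.40 and 49.8 CPM in the controls. All 15 carmofur libraries lay above the control median, and every one lay above 11 of the 12 controls. The groups overlapped through carmofur control 11 alone, at 49.8 CPM, which 6 of the 15 carmofur libraries exceeded. The next highest control was at 23.1 CPM. The means were 53.1 ± 29.9 CPM with carmofur (SD, n = 15) and 13.3 ± 13.2 CPM in the controls (n = 12), or 1.98 ± 0.36 on the log2 scale (SE), with an adjusted p of 0.000113. Here and elsewhere the p comes from the quasi-likelihood F test in edgeR and is adjusted over all genes tested by the Benjamini-Hochberg method. Of the 10 genes, 8 passed the filter on low counts and 1 was called at an adjusted p under 0.05, where 9.02% of all 9992 genes tested were called (5.21% higher and 3.80% lower). The median log2 fold change of the 8 was 0.27, against 0.00 over all genes tested. Without carmofur control 11 the Gsta1 value was 2.39 ± 0.34, and over all 36 fits with libraries left out it ran from 1.69 to 2.39. With the 4 near-identical alpha genes summed it was 1.98 ± 0.35 (adjusted p = 7.17e-05). When the counts of each set of 3 consecutive library numbers were added up, the call was lost at 2.01 ± 0.50 on the log2 scale (adjusted p = 0.0530).

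The higher Gsta1 level was present within each block of 12 library numbers. In block 1, 6 carmofur libraries ran from 27.5 to 55.4 CPM and 3 controls from 1.93 to 5.36 CPM, with a difference of 3.33 on the log2 scale (adjusted p = 0.00191 in edgeR on that block alone). In block 2, 6 carmofur libraries ran from 23.8 to 76.3 CPM and 3 controls from 4.35 to 10.9 CPM, with a difference of 2.67 on the log2 scale (adjusted p = 0.00847). In block 3, 3 carmofur libraries ran from 43.6 to 143 CPM and 6 controls from 7.63 to 49.8 CPM, with a difference of 2.08 on the log2 scale (adjusted p = 0.0267). The groups did not overlap in the first pair of blocks and overlapped in block 3. How many of all genes showed no overlap in these blocks was not counted. With block as a covariate the log2 fold change was 2.66 ± 0.32. The blocks follow from the library numbers and are not described as batches in the labels. The controls of blocks 1 and 2 and the carmofur libraries of block 3 were each a single set of 3 consecutive library numbers. No set held both groups, so within a block treatment and set cannot be told apart. The p-values of single blocks treat the libraries of a set as independent.

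**Figure D2:**
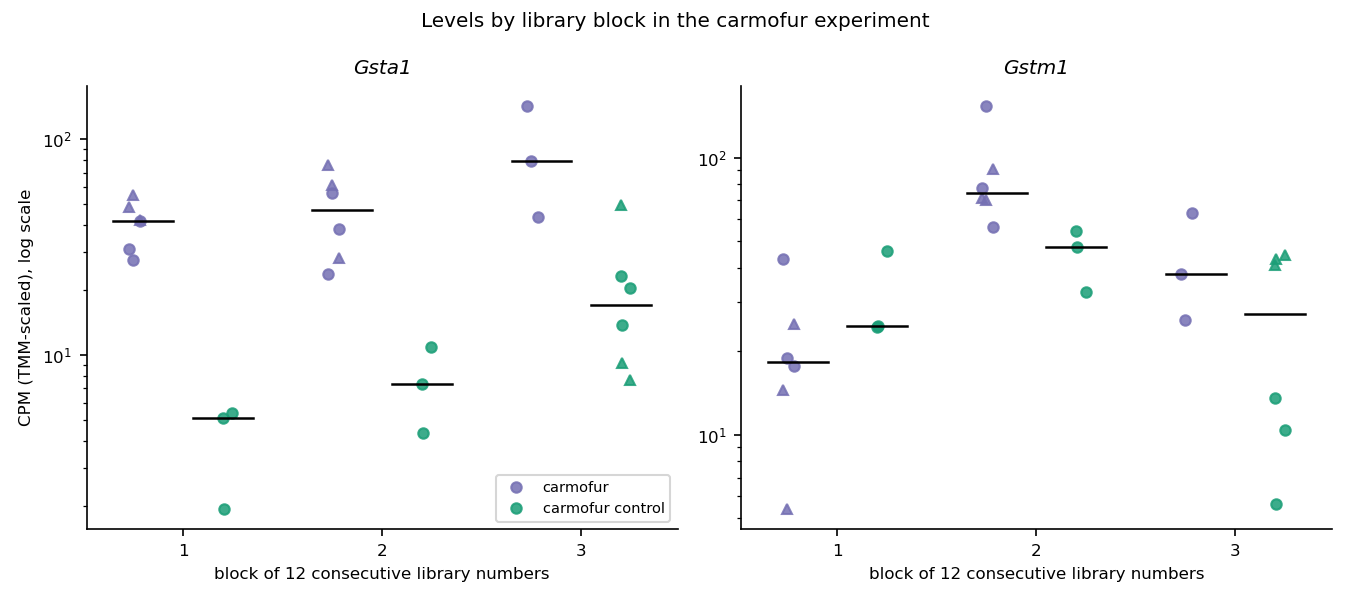
CPM of Gsta1 and Gstm1 (log y axes) by block of 12 consecutive library numbers (x axis), carmofur left of its control in each block. Points are libraries, circles and triangles mark the sets of 3 consecutive numbers within a block, and bars are medians. Gsta1 medians were 41.9, 47.3 and 79.2 CPM with carmofur and 5.10, 7.33 and 17.1 CPM in the controls of blocks 1, 2 and 3. Gstm1 medians in block 1 were 18.3 CPM with carmofur and 24.7 CPM in the controls, with the opposite order in block 2.

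Markers of surface colonocytes were also higher with carmofur. All 4 of the 9 absorptive colonocyte markers that passed the filter were called higher, where 5.21% of all genes tested were. They were Krt20 (log2 fold change 2.82), Car1 (1.003), Car2 (0.65) and Ceacam1 (0.59). The 9 markers summed to 5708 to 8084 CPM with carmofur and to 3504 to 4838 CPM in the controls, with no overlap. Aqp8 and Slc26a3 had no count in any carmofur control and some counts with carmofur. Neither passed the filter on low counts, so neither was tested. The 9 epithelial markers summed to 4356 to 6636 CPM with carmofur and to 3926 to 5224 CPM in the controls, with overlap. The 5 hepatocyte markers, a second cell type rich in alpha-class transferases, summed to 30.7 to 119 CPM with carmofur and to 17.7 to 54.8 CPM in the controls, with Serpina1a at 0 counts in both groups, and of these Cyp2e1 was called higher (0.83). Of the 2 tested goblet cell markers, Agr2 was called lower (-0.64), while Spink4 had a positive value and was not called (1.17, adjusted p = 0.600). The part of these marker lists in the Gsta1 result was not tested. The mitochondrial share of counts was 5.21 to 7.15% with carmofur and 4.64 to 6.41% in the controls.

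The other alpha genes did not pass the test with carmofur. Gsta4, the subunit known for its activity on the lipid aldehyde 4-hydroxynonenal, had a lowest level of 55.8, a median of 97.3 and a highest of 187 CPM with carmofur, against 39.4, 57.1 and 147 CPM in the controls. Of the 15 carmofur libraries, 14 lay above the control median, and the ranges overlapped. Its log2 fold change was 0.56 ± 0.20, with an adjusted p of 0.0739. That p fell under the threshold in 4 of 36 fits with libraries left out and in 2 of 15 other alternatives. With libraries left out the adjusted p in edgeR ran from 0.00513 (without carmofur controls 4 to 6, log2 fold change 0.81) to 0.340. In the other alternatives, by edgeR, DESeq2 or limma-voom, it ran from 0.0332 to 0.687. Gsta3, which in mice is known for detoxifying aflatoxin epoxide, ran from 0.539 to 89.6 CPM with carmofur (median 21.3) and from 4.76 to 80.6 CPM in the controls (median 27.6). Its log2 fold change was 0.02, with a 95% interval of -0.82 to 0.85.

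Gsta2 was close to the limit of detection. It had counts in 5 of 15 carmofur libraries, 89 in all, of which 50 fell in carmofur 11 and 35 in carmofur 15. The 12 controls held 1 count together. Those 2 carmofur libraries had 633 and 1322 Gsta1 counts, while carmofur 12 and 14, with 623 and 549 Gsta1 counts, had 1 and 0 Gsta2 counts. Gsta2 did not pass the filter in either experiment. Without the filter it was called with carmofur (log2 fold change 4.04 ± 1.28, adjusted p = 0.0303), a fitted value that depends on the prior count.

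Both mu-class genes stayed short of the threshold with carmofur. Gstm1, a broad detoxifying enzyme, had a lowest level of 5.39, a median of 43.1 and a highest of 153 CPM with carmofur, against 5.62, 36.9 and 54.4 CPM in the controls. Its log2 fold change was 0.67 ± 0.36 (adjusted p = 0.320). Within blocks the 6 carmofur libraries of block 2 were at 56.3 to 153 CPM and the 3 controls there at 32.8 to 54.4 CPM. The share of all genes with no overlap there was not counted. In block 1 the carmofur median was 18.3 CPM against 24.7 CPM in the controls. The fitted direction in block 1 alone was accordingly the opposite (log2 fold change -0.62, adjusted p = 0.730). Gstm5 ran from 60.7 to 260 CPM with carmofur (median 110) and from 75.8 to 202 CPM in the controls (median 132), and its log2 fold change was -0.20 ± 0.18 (adjusted p = 0.667).

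The omega, pi, theta and microsomal genes were likewise not called with carmofur. Gstp1, which besides conjugation is known to bind the stress kinase JNK, ran from 371 to 981 CPM with carmofur (median 546) and from 465 to 847 CPM in the controls (median 645). Of the 15 carmofur libraries, 12 lay below the control median, and the log2 fold change was -0.20 ± 0.12 (adjusted p = 0.356, 95% interval -0.43 to 0.02). Its near-copy Gstp2, 98.1% identical in the coding sequence, had 31.2 ± 14.8 CPM with carmofur and 29.3 ± 12.9 CPM in the controls. Gstp1 made up 57.4 ± 5.34% of the summed CPM of the 10 genes with carmofur and 65.8 ± 4.59% in the controls, a description with no test. Gsto1, a reductase-like member that also reduces dehydroascorbate, ran from 17.1 to 68.8 CPM with carmofur and from 17.4 to 51.8 CPM in the controls, and its log2 fold change was 0.14 ± 0.23. Mgst1, a membrane enzyme with peroxidase activity, ran from 0 to 54.9 CPM with carmofur (median 17.0) and from 0.128 to 56.8 CPM in the controls (median 10.7), and its log2 fold change was 0.40 ± 0.73. Mgst1 medians were further apart between blocks than between groups, at 11.1, 35.3 and 0.486 CPM with carmofur and 11.3, 31.2 and 3.14 CPM in the controls of blocks 1, 2 and 3. The block 3 controls differed by set, at 0.128 to 0.255 CPM in carmofur controls 7 to 9 and 6.03 to 19.1 CPM in controls 10 to 12. Gstt1, an enzyme of small halogenated compounds, was uneven, with no count in 8 of 15 carmofur libraries and 6 of 12 controls, and 190 of its 280 carmofur counts in carmofur 7.

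**Figure D3:**
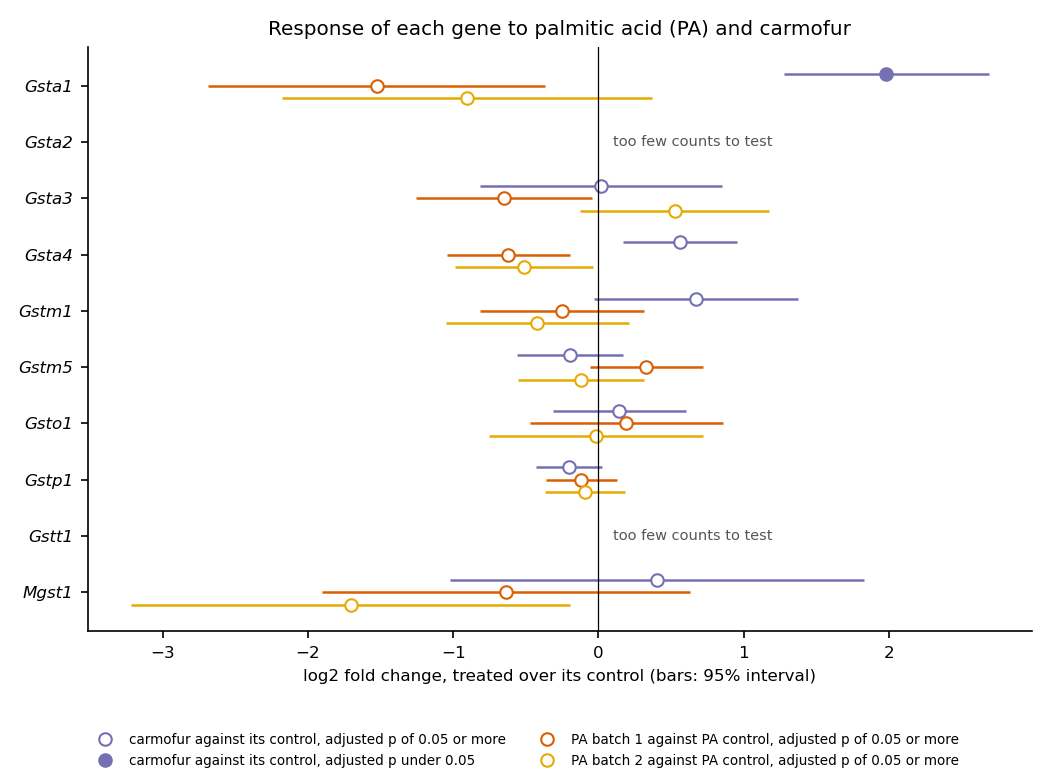
Log2 fold change (x axis) of each gene (y axis) for carmofur over its control, PA batch 1 over PA control and PA batch 2 over PA control, from top to bottom within a gene, with 95% intervals as bars. Filled points have an adjusted p under 0.05. Gsta1 with carmofur, at 1.98, is the single filled point.

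With PA batch 1, 0 of the 8 tested genes were called, where 0.559% of all 9845 genes tested were. At an unadjusted p under 0.05 there were 3 (edgeR), where 761 of all 9845 genes tested had one, and DESeq2 also called 0. Gsta1 was at 7.32, 7.08 and 9.13 CPM in PA batch 1, against 28.4, 24.7 and 15.7 CPM in the PA controls. Every treated library lay below every control, as did those of 6.12% of all genes tested. The log2 fold change was -1.53 ± 0.59 (adjusted p = 0.431, 95% interval -2.69 to -0.37), on 56 counts in batch 1 and 120 in the controls. With the 4 near-identical alpha genes summed it was -1.33 ± 0.54 (adjusted p = 0.470). Gsta4 was at 76.3, 86.7 and 75.0 CPM in PA batch 1, against 115, 116 and 135 CPM in the PA controls, again without overlap, with a log2 fold change of -0.62 ± 0.22 (adjusted p = 0.301). Car1, one of the 4 tested colonocyte markers, was called lower in batch 1 (log2 fold change -1.02), and the 9 markers summed to 2875 to 3063 CPM there and to 3726 to 4212 CPM in the controls. The 9 epithelial markers summed to 3150 to 3289 CPM in batch 1 and to 3687 to 4050 CPM in the controls. The part of either list in the Gsta1 and Gsta4 values was not tested.

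The remaining genes gave smaller or less even differences in PA batch 1. Gstm5 was at 138, 127 and 148 CPM in batch 1, against 113, 111 and 105 CPM in the PA controls, so all treated libraries lay above all controls (as for 6.92% of genes tested), with a log2 fold change of 0.33 ± 0.20 (adjusted p = 0.739). Gsta3 was at 32.7, 38.6 and 35.1 CPM in batch 1, against 104, 37.6 and 34.6 CPM in the PA controls. Its log2 fold change of -0.65 ± 0.31 (adjusted p = 0.618) rests on PA control 1, the shallowest library at 762888 counts, which alone stood high: without it the value was -0.03. Gstp1 was at 823, 845 and 931 CPM in batch 1 and at 1133, 785 and 910 CPM in the PA controls (log2 fold change -0.12, 95% interval -0.36 to 0.13). Gstm1, Gsto1 and Mgst1 overlapped between the groups, with log2 fold changes of -0.25, 0.19 and -0.64. Gstt1, below 4 CPM in all 8 libraries, and Gsta2, with 2 counts in the 8 libraries together, had too few counts to test.

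PA batch 2 also gave 0 calls among the 8 tested genes, where 0.325% of all genes were called, and DESeq2 called 0. In edgeR 2 of the 8 had an unadjusted p under 0.05, where 699 of all 9845 genes tested had one. Gsta4 was at 78.0 and 93.2 CPM in PA batch 2, below the 115 to 135 CPM of the PA controls, giving -0.51 ± 0.24 on the log2 scale (adjusted p = 0.649). Mgst1 was at 4.87 and 4.99 CPM in batch 2, against 6.44, 13.7 and 26.99 CPM in the PA controls, giving -1.71 ± 0.77 on the log2 scale (adjusted p = 0.629). Gsta1 was uneven in batch 2, at 3.79 and 20.8 CPM, and its log2 fold change of -0.91 ± 0.65 had an adjusted p of 0.903. With the near-identical genes summed that value was -0.57 ± 0.59. Gsta3 was the 1 gene of the 8 with a positive value: it was at 82.6 and 78.2 CPM in batch 2, against 104, 37.6 and 34.6 CPM in the PA controls, or 0.53 ± 0.33 on the log2 scale (adjusted p = 0.827). Without PA control 1 this value was 1.15 ± 0.32 (adjusted p = 0.109). In Gsta4, Mgst1 and Gstm5 both treated libraries lay below every control, as in 9.02% of all genes tested. The log2 fold changes of Gstm5, Gstm1, Gsto1 and Gstp1 were -0.12, -0.42, -0.016 and -0.093, and Gsta2 and Gstt1 were not tested. The absorptive colonocyte markers summed to 3081 to 3189 CPM in batch 2 and to 3726 to 4212 CPM in the controls, and the epithelial markers to 3105 to 3154 CPM in batch 2 and to 3687 to 4050 CPM in the controls, both without overlap. Their part in these values was not tested. Both batches were set against the same 3 controls, so their values are not independent of each other.

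Between the PA batches, 0 of the 8 tested genes were called, where 0.102% of all genes were, and DESeq2 called 0. In edgeR 2 of the 8 had an unadjusted p under 0.05, where 233 of all 9845 genes tested had one. Gsta3 differed most: it was at 82.6 and 78.2 CPM in PA batch 2, against 32.7, 38.6 and 35.1 CPM in PA batch 1, giving 1.18 ± 0.33 on the log2 scale (batch 2 over batch 1, adjusted p = 0.331). Under limma-voom with quality weights its adjusted p was 0.0360. Gstm5 was at 99.1 and 102 CPM in batch 2 and at 127 to 148 CPM in batch 1 (log2 fold change -0.45, adjusted p = 0.9998). The log2 fold changes of Gsta1, Gsta4, Gstm1, Gsto1, Gstp1 and Mgst1 were 0.62, 0.11, -0.17, -0.21, 0.025 and -1.07, and Gsta2 and Gstt1 were not tested.

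The Gsta1 response to carmofur differed from the response to PA batch 1. In a fit of all 35 libraries the carmofur effect minus the PA batch 1 effect was 3.52 ± 0.86 on the log2 scale (adjusted p = 0.0336, edgeR). It was the single call among the 10 genes, all of which passed the filter in this fit, where 0.690% of all 14052 genes were called. The experiments share no library, so treatment cannot be told apart from whatever else differed between them. The call depends on the few PA libraries: without any 1 of the 3 PA controls or 3 batch 1 libraries the value stayed between 3.37 and 3.73, but the adjusted p ran from 0.0536 to 0.165. Leaving out carmofur controls 4 to 6, carmofur 10 to 12 or carmofur 13 to 15 also took it past the threshold, to between 0.0538 and 0.0682. Gsta4 had a difference of 1.19 ± 0.43 (adjusted p = 0.347), and the other 8 genes had differences between -0.52 (Gstm5) and 1.05 (Mgst1). Among these, Gsta3, Gstm1, Gsto1 and Gstp1 were at 0.71, 0.93, -0.054 and -0.080. Gsta2 and Gstt1, with few counts, were at 0.97 ± 3.95 and 0.41 ± 2.68.

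Among 23 other glutathione transferase genes, Mgst3, Mgst2, Gstm2 and Hpgds rose with carmofur and Gstz1 fell. Of the 18 tested, 4 were higher and 1 lower, where 5.21% of all genes tested were higher and 3.80% lower, with a median of 0.63 on the log2 scale for the list and 0.00 for all genes. The list was chosen with earlier results of these data known. Mgst3, a microsomal transferase and peroxidase, was at 1459 ± 260 CPM with carmofur and 929 ± 150 CPM in the controls, and rose by 0.65 ± 0.09 on the log2 scale (adjusted p = 9.11e-07). Gstm2, a mu-class enzyme, was at 102 ± 51.8 CPM with carmofur and 39.2 ± 17.1 CPM in the controls (log2 fold change 1.38, adjusted p = 0.000127). Mgst2, which makes leukotriene C4, was at 65.4 ± 18.7 CPM with carmofur and 39.5 ± 9.10 CPM in the controls (log2 fold change 0.73). Hpgds, the sigma-class enzyme that makes prostaglandin D2, was at 22.1 ± 9.70 CPM with carmofur and 9.93 ± 3.49 CPM in the controls (log2 fold change 1.15). Gstz1, the zeta-class enzyme of tyrosine breakdown, was at 37.9 ± 19.8 CPM with carmofur and 84.6 ± 18.8 CPM in the controls (log2 fold change -1.16, adjusted p = 0.000118). Gm3776, the near-copy of Gsta1, was at 8.06 ± 7.52 CPM with carmofur and 2.24 ± 4.94 CPM in the controls, and was not called (adjusted p = 0.335). With PA batch 1, edgeR called 0 of 16 tested genes of this list, and 2 had an unadjusted p under 0.05, as did 761 of all 9845. Hpgds had the lowest p, at 7.32 to 14.5 CPM in batch 1 and 0 to 2.25 CPM in the PA controls (adjusted p = 0.227). With PA batch 2, edgeR called 0, and 1 had an unadjusted p under 0.05, as did 699 of all 9845.

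Genes that make, recycle or use glutathione moved in both directions with carmofur. Of 22 tested genes of glutathione synthesis and recycling, 3 were higher and 2 lower (5.21% and 3.80% of all genes), with a median log2 fold change of -0.03. Gpx1, the cytosolic glutathione peroxidase, was at 308 ± 71.5 CPM with carmofur and 154 ± 44.2 CPM in the controls (log2 fold change 1.002, adjusted p = 1.78e-06). Idh1 and Me1, sources of NADPH, rose by 0.27 and 0.64 on the log2 scale. Gpx2, the gut peroxidase, and Slc3a2, a subunit of the cystine importer, fell by 0.28 and 0.61 on the log2 scale. Gclc and Gclm, the subunits of the enzyme that limits glutathione synthesis, were at 7.58 and 31.5 CPM with carmofur and at 10.7 and 44.0 CPM in the controls, and neither was called. Of 9 tested genes of conjugate export and mercapturate steps, Abcc5, an efflux pump, was higher (1.47) and Lap3, a peptidase, was lower (-0.39), against the same shares of all genes.

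Among the regulators known for this gene family and their targets, calls came at about the share over all genes (9.02%). Of 22 tested NRF2 regulators and other NRF2 targets, 2 were higher with carmofur, Prdx1 by 0.20 and Ugdh by 0.52 on the log2 scale, and 0 were lower. The classical target Nqo1 was at 55.6 ± 13.4 CPM with carmofur and 61.1 ± 16.5 CPM in the controls, or -0.14 on the log2 scale (adjusted p = 0.769). Of 11 tested xenobiotic and intestinal regulators and their targets, 1 was higher, the cytochrome P450 gene Cyp3a13, at 18.5 ± 11.7 CPM with carmofur and 3.65 ± 4.35 CPM in the controls (log2 fold change 2.32, adjusted p = 0.0393). With PA batch 1 and PA batch 2, edgeR called 0 genes of these 4 lists, with 5 at an unadjusted p under 0.05 in either batch. Over all 9845 genes tested, such genes numbered 761 in batch 1 and 699 in batch 2. In batch 1 the gene of lowest p within each of these 4 lists was Glrx, a glutaredoxin (log2 fold change 0.54, adjusted p = 0.183), Lap3 (0.42, 0.440), Sqstm1 (-0.47, 0.693) or Cyp1b1 (1.53, 0.756).

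**Figure D4:**
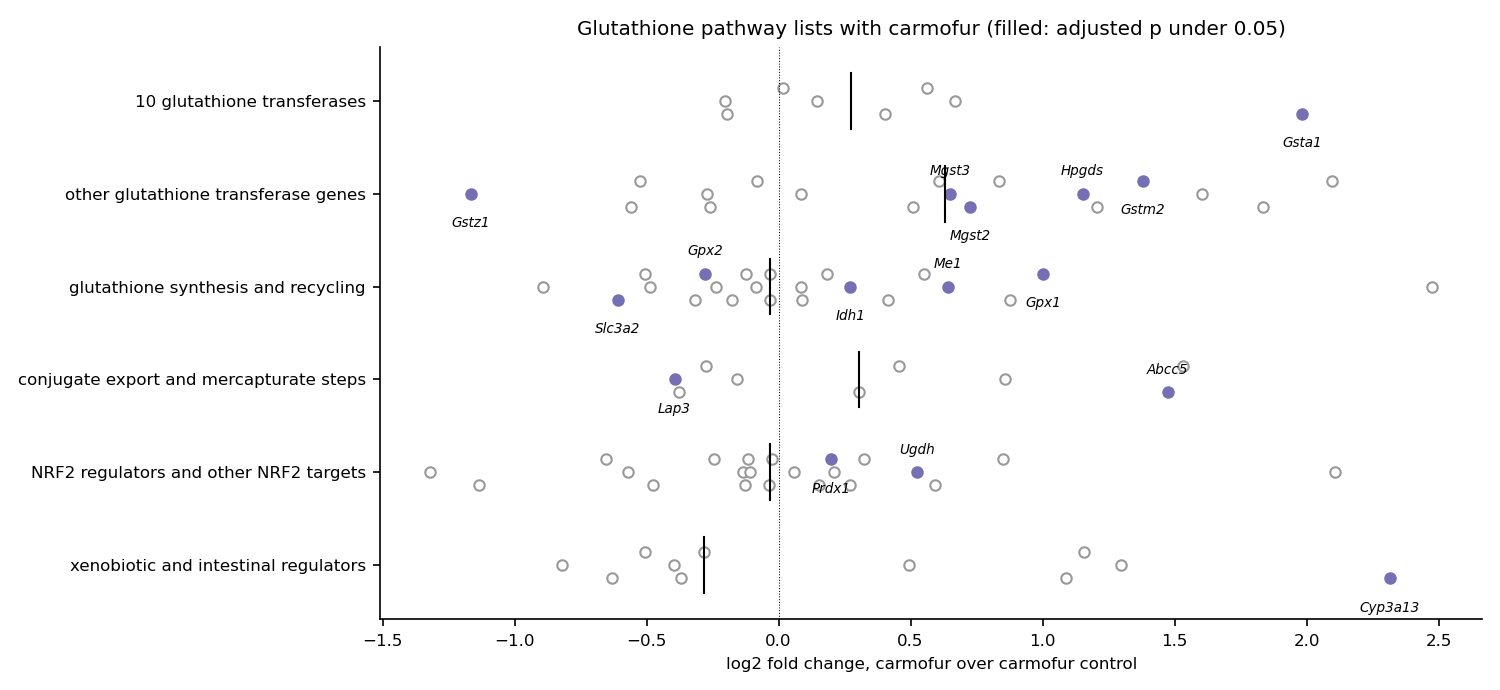
Log2 fold change of carmofur over carmofur control (x axis) for the tested genes of each list (rows), with filled and named points at an adjusted p under 0.05 and a bar at the list's median. Of the 10 glutathione transferases, Gsta1 lies apart at 1.98, and in the list of other glutathione transferase genes 4 filled points lie above 0 and 1 below.

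Correlations among the 8 tested genes across the carmofur experiment were uneven. After group means were removed, Pearson's r of log2 CPM over the 27 libraries was highest for Gsta4 with Gstm5 (0.64), Gstm1 with Gstp1 (0.63) and Gstm1 with Mgst1 (0.61). Gsta1 had an r between -0.24 and 0.32 with the other 7. These values describe libraries that share depth, library set and block. For the 3 genes of highest mean CPM, the genes most like them among 9223 compared were Dnajc8 (r = 0.85), Psenen (0.79) and Dazap2 (0.78) for Gstp1, Atpif1 (0.71), Mb (0.71) and Kitl (0.70) for Gstm5, and Zfp52 (0.74), Lgals1 (0.72) and Ccn1 (0.70) for Gsta4.

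RefSeq promoters (GRCm38.p6, 250 bases before to 50 after the start) were found for 9 of the 10 genes and searched on both strands for 3 motifs. The antioxidant response element core, TGACNNNGC, was present in 3 of the 9 (Gsta3, Gstm5 and Mgst1) and in 12.4% of all 32851 promoters. The xenobiotic response element core, GCGTG, was present in 5 (Gsta1, Gsta2, Gstm1, Gstm5 and Gstp1) and in 32.4% of all promoters, and the AP-1 site, TGANTCA, in 2 (Gstm5 and Gstp1) and in 7.81%. In Gstm5 1 xenobiotic core overlaps the AP-1 site and another overlaps the antioxidant core, so its matches are not separate. The promoters of Gsta1, the gene called with carmofur, and of Gstm5, the one with all 3 motifs, are shown with the matches in capitals.
Gsta1, chr9:78230419-78230718, plus strand: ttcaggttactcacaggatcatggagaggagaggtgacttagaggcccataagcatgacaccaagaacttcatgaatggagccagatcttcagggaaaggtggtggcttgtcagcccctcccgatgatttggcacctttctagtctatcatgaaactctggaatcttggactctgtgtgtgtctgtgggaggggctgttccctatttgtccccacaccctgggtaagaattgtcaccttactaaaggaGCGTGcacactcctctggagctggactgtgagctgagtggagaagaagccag
Gstm5, chr3:107895604-107895903, plus strand: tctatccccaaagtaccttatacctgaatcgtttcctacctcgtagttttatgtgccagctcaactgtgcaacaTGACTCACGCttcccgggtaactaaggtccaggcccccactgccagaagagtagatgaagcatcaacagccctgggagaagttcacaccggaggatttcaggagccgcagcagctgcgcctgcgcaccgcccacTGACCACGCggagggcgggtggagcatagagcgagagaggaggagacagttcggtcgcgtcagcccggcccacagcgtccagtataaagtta
The single match in Gsta1 begins 2 bases before the annotated start. A match describes these letters and no more, and bases outside this window were not searched. The part of any motif in the values above was not tested.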

How the data were processed

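Poly(A)-selected, strand-specific libraries were made from organoid RNA, per the labels' protocols. The authors deposited estimated counts per gene, all whole numbers. The submitters' processing notes name Salmon 1.3.0 and the build mm10. How transcripts were summed to genes is not given in the sources used here. Genes without a name held 0.0216% of the counts. Tests used edgeR 4.0.16 in R 4.3.3 (TMM, default expression filter, robust quasi-likelihood F test), with Benjamini-Hochberg adjustment over all genes tested and a threshold of 0.05. The 8 PA libraries, the 27 carmofur libraries and all 35 were fitted apart. A standard error is the log2 fold change divided by the square root of F. Correlations used log2 of CPM plus 0.5. The tests were checked on simulated data. Library sets of 3 and blocks of 12 consecutive numbers were taken from the library names. Counts of the 178 pairs of libraries of 1 group all differed beyond sampling noise (chi-square at least 7.40 times its degrees of freedom), so no pair was merged, which does not show that they came from separate cultures. Alternatives used DESeq2 1.42.0 and limma 3.58.1, and the removal of single carmofur libraries was added after the data were seen. The genes, lists and naming rule (all 10 genes in each comparison, up to 4 lowest-p genes per list, and the 3 most like genes for the 3 most abundant) were chosen with earlier results of these data known. Where the text names further genes of a list, such as Hpgds, Gm3776, Me1, Gclc, Gclm and Nqo1, they were added after their values were seen.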

Additional observations from a re-analysis of the deposited data

Results flagged for a closer look

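For Gsta1 the carmofur effect minus the PA batch 1 effect was called, at 3.52 ± 0.86 on the log2 scale (adjusted p = 0.0336, edgeR over all 35 libraries). No such difference was fitted for PA batch 2. The call was lost in 9 of 17 fits that left libraries out, where the adjusted p reached 0.165. All 15 carmofur libraries lay above the median of their controls, and 6 of them above every control. All 3 PA batch 1 libraries lay below every PA control, as did those of 6.12% of all genes tested there. Gsta1 was not called in PA batch 1 (adjusted p = 0.431, edgeR). Of the other glutathione transferase genes, Mgst3 differed likewise, by 0.97 ± 0.19 (adjusted p = 0.00550), with log2 fold changes of 0.65 for carmofur and -0.31 for PA batch 1. The experiments share no library, so the treatment and the experiment cannot be told apart.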

How the results depend on the processing

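The Gsta1 rise with carmofur kept its direction in every alternative run, with log2 fold changes of 1.69 to 2.39 when libraries were left out and 1.96 to 3.33 otherwise, and lost its call when library sets were summed. Of 1047 values of the 10 genes under alternatives, 961 kept direction and side of the threshold, 67 changed sign, 10 lost the threshold and 9 gained it. Where paralogues were summed, Gsta1 and Gsta2 were given the same alpha total, and Gstm1 and Gstm5 the same mu total. Some of these values are therefore totals counted more than once. Replicate numbers did not pair the libraries: correlations of deviations ran from -0.023 to 0.048 with carmofur, -0.017 to 0.021 in PA batch 1 and -0.011 to -0.0074 in PA batch 2, and 1 of 12, 1 of 3 and 0 of 2 libraries matched their own number best. With a replicate block, Gsta1 was at 2.12 for carmofur, 2 of the 10 genes were called there (Gsta4 was the other, at 0.70), 56 genes in all were called for the carmofur minus PA batch 1 difference against 97, and Gsto1 in PA batch 2 was at 0.22, Gsta2 at -1.26 and Gstt1 at -1.54 in the difference.

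Counts of called genes moved as follows. PA batch 1 had 55 calls, and 21 to 72 with 1 library left out. PA batch 2 had 32, and 55 in DESeq2. Between batches there were 10, with 19 without the filter, 2 to 14 with 1 library left out, and 1 of the 10 genes called by voom. Carmofur had 901 calls, with 3541 without the filter, 334 with sets summed, and 234, 512 and 588 in blocks 1, 2 and 3 alone, which hold fewer libraries. Of the 10 genes, carmofur called 3 without the filter (Gsta1, Gsta4 and Gsta2), 0 with sets summed and 1 to 2 with libraries left out. The difference had 97 calls, with 195 in DESeq2, 239 in voom and 22 to 129 with libraries left out, where 0 to 1 of the 10 genes were called (Gsta1, lost in 9 of 17 such fits). The causes were not tested.

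Signs changed mostly in small values. With paralogues summed, the mu total stood for both Gstm1 and Gstm5. It was at 0.14 in PA batch 1 (a changed sign for Gstm1) and at 0.024 in PA batch 2 (for both). It was at 0.43 for carmofur and 0.30 in the difference (for Gstm5). Without the filter Gsto1 was at 0.022 in PA batch 2. Voom gave -0.11 for Gsta1 between batches, -0.82 for Gsta3 with carmofur, and -0.54 for Gsta3 and -1.80 for Gstt1 in the difference, where DESeq2 gave -2.04 for Gstt1. Gsta3 with carmofur was at -0.090 with sets summed, -0.79 with sets correlated, -0.44 with block as covariate, -0.40 and -1.64 in blocks 1 and 3, and -0.50 without 3 libraries. Mgst1 was at -0.17 with block as covariate and at -0.068 and -0.65 in blocks 2 and 3. Block 1 gave -0.62 for Gstm1 and -0.28 for Gsto1, and block 2 gave 0.22 for Gstm5 and 0.043 for Gstp1. With libraries left out, Gsto1 ran from -0.079 to 0.38 in PA batch 1, -0.40 to 0.31 in PA batch 2, -0.60 to 0.11 between batches and -0.27 to 0.21 in the difference. Gstp1 ran from -0.24 to 0.027, -0.21 to 0.058, -0.010 to 0.078 and -0.21 to 0.029 in the same order. Between batches Gsta1 ran from -1.03 to 1.40, Gsta4 from -0.019 to 0.23 and Gstm1 from -0.42 to 0.21. With carmofur Gsta3 ran from -0.38 to 0.30 and Mgst1 from -0.031 to 1.51, and Gstt1 ran from -1.74 to 1.45 in the difference. No scaling moved the median of all genes by over 0.1. At 762888 counts in the shallowest library, 3 counts are worth several CPM, which limits Gsta2, Gstt1 and the PA values of Gsta1 and Mgst1.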
